A study of Mus musculus with 8 samples.

Results

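MHC class I and peptide loading genes were followed in mesenchymal stem cells sorted from mouse bone marrow by the leptin receptor (LEPR+ cells). The set holds the heavy chain genes H2-K1, H2-D1 and H2-Q7, the light chain gene B2m, the transporter genes Tap1 and Tap2, the loading factor gene Tapbp, the immunoproteasome genes Psmb8 and Psmb9, and the transactivator gene Nlrc5. Its members were picked by symbol, and all 10 were found among the 52636 genes of the count table. The measurement was bulk RNA sequencing of polyadenylated RNA, from C57BL/6 mice dosed intravenously with 150 µg of an immunoglobulin each week for 3 weeks. The control group received HEL-Ig, an IgG1 antibody against hen egg lysozyme, and the other group received LTβR-Ig, a soluble decoy for the ligands of the lymphotoxin β receptor, with 4 libraries in each group. All cells had passed the same gate, and then passed it again: alive, negative for CD45, Ter119, CD31 and CD144, and positive for LEPR. The labels give neither the age nor the sex of the mice, and they leave unsaid if every library stems from its own mouse. The p-values below therefore measure the spread between these libraries, which may be technical.

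Class I molecules display peptides from inside the cell to CD8+ T cells. Proteasomes cut proteins into peptides, the TAP transporter carries these into the endoplasmic reticulum, and tapasin helps to load them onto a heavy chain paired with β2-microglobulin. Transcription of this pathway is driven by NLRC5 together with RFX, CREB/ATF and NF-Y proteins, and by interferon regulatory factors and NF-κB. Stromal cells express class I at a basal level that interferons and tumour necrosis factor family signals are known to raise.

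Total counts lay between 52378101 and 64403177 per library, and between 18383 and 19781 genes were detected. LEPR+ stromal marker genes, Cxcl12 and Lepr among them, took 2.40 to 3.13% of counts in control and 2.62 to 3.47% in LTβR-Ig libraries, with 2 of 8 genes, Kitl and Pdgfra, lower at an unadjusted p under 0.05. Of these 8 genes 6 had a log2 fold change below 0 (median -0.093), beside 50.3% of all genes tested. In 2 of the 8 every LTβR-Ig library lay below every control library, beside 2.53% of all genes. Pan-leukocyte markers took 0.0431 to 0.0901% and 0.0499 to 0.117%, and none of the 6 genes of that list differed at an unadjusted p under 0.05. On the first principal component, which held 19.2% of the variance, the extremes were control replicate 3 (-56.3) and LTβR-Ig replicate 2 (110.4). Across the 16045 genes tested with edgeR's quasi-likelihood test and Benjamini-Hochberg adjustment, 6 genes (0.0374%) passed an adjusted p of 0.05, and no member was among them.

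Of the 10 members, 9 had a lower mean level with LTβR-Ig, compared with 50.3% of all genes tested. H2-K1, H2-D1, H2-Q7, B2m and Tapbp were lower at an unadjusted p under 0.05, so 5 of 10 members met a mark met by 2.93% of all genes in that direction. No member was higher at that p, compared with 3.39% of all genes. In the same 5 members every LTβR-Ig library lay below every control library, which held for 2.53% of all genes, and the opposite separation held for 2.36% of all genes and for no member. The median log2 fold change, LTβR-Ig minus control, was -0.30 over the members and -0.0021 over all genes. The members were chosen with earlier results of these data known, so these values describe them and do not test them as a set. DESeq2, run as an alternative, called H2-K1 and H2-Q7 as lower at an adjusted p of 0.05, and it called 0.986% of its 17338 genes in that direction. In bulk RNA, fewer cells of a kind and less RNA in each cell cannot be told apart.

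**Figure D1:**
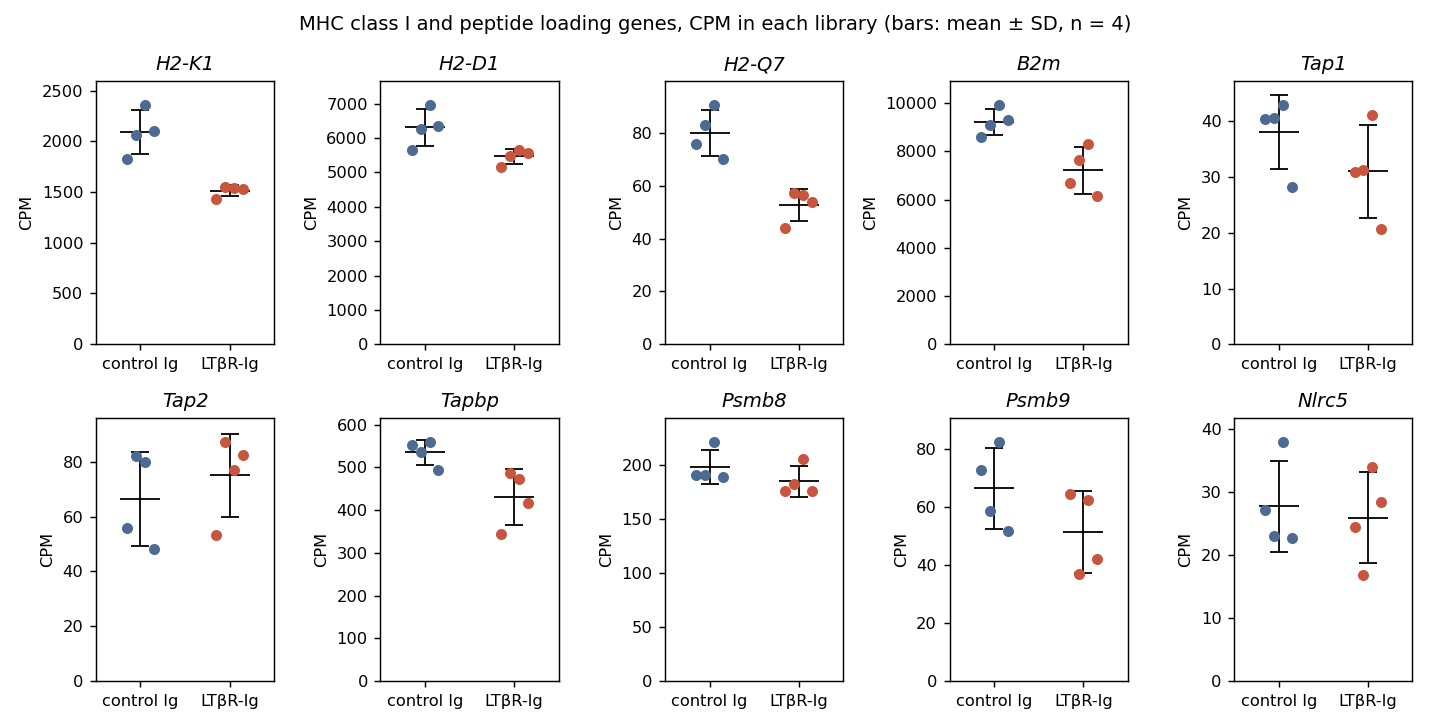
Counts scaled by library size (CPM, y axes from 0) of each member in the 4 control and 4 LTβR-Ig libraries; points are libraries, and bars give the mean ± SD. The groups do not overlap for H2-K1, H2-D1, H2-Q7, B2m and Tapbp, and they overlap for the other 5 members.

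H2-K1 encodes the K heavy chain, 1 of the classical class I molecules of this strain. It lies on chromosome 17 at 33996017 to 34000347 in GRCm38, the assembly also called mm10. Its level was 1829, 2063, 2358 and 2098 CPM in control replicates 1 to 4. In LTβR-Ig replicates 1 to 4 it was 1428, 1548, 1543 and 1533 CPM. All LTβR-Ig libraries lay below the lowest control library, and 3 of them lay between 1533 and 1548 CPM. The level was 1.38-fold lower, from 2087 ± 216 to 1513 ± 56.9 CPM (SD, n = 4 each). The log2 fold change was -0.46 (SE 0.094, 95% interval -0.68 to -0.25, edgeR adjusted p = 0.194), and DESeq2 gave an adjusted p of 0.00148.

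H2-D1 encodes the D heavy chain, the other classical molecule here, and lies at 35262730 to 35267499 on chromosome 17. Its control libraries were at 5669, 6272, 6966 and 6339 CPM. Its LTβR-Ig libraries were at 5149, 5495, 5656 and 5569 CPM. The separation was narrow, since the highest LTβR-Ig library and the lowest control library were 5656 and 5669 CPM. The level was 1.15-fold lower (6312 ± 530 to 5467 ± 222 CPM, SD, n = 4 each). On the log2 scale this was -0.21 (SE 0.085, 95% interval -0.40 to -0.015, edgeR adjusted p = 0.751). Leaving out any of control replicates 2 to 4 or of LTβR-Ig replicates 1 to 3 took its unadjusted edgeR p past 0.05, and the log2 fold change ran from -0.25 to -0.15 over all single-library omissions.

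H2-Q7 encodes a heavy chain of Qa-2, a non-classical class I molecule, and lies at 35439155 to 35443773 on chromosome 17. It was at 75.9, 83.1, 90.6 and 70.2 CPM in control libraries. With LTβR-Ig it was at 43.9, 57.1, 56.5 and 53.8 CPM. The groups were well apart, and the level was 1.51-fold lower, from 80.0 ± 8.85 to 52.8 ± 6.13 CPM (SD, n = 4 each). The log2 fold change of -0.60 (SE 0.13, 95% interval -0.90 to -0.30) had an edgeR adjusted p of 0.240 and a DESeq2 adjusted p of 0.00373. The Q genes are close copies of one another. Of the 76-base windows of H2-Q7 transcripts, 76 being the read length, 16.7% also occur in another gene, most often H2-Q10 (8.72%) and H2-Q5 (5.22%). The same share was 2.96% for H2-K1 and 5.40% for H2-D1. These shares count only genes annotated in GENCODE M21. H2-Q8 and H2-Q9 were not found by symbol in the count table, so any reads from them have no row of their own. Part of the H2-Q7 value may therefore belong to its neighbours, depending on how the counting treated shared reads.

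B2m encodes β2-microglobulin, the light chain that every class I heavy chain needs for stable surface display. It lies outside the MHC, on chromosome 2 at 122147686 to 122153083. Control libraries held 8582, 9087, 9927 and 9284 CPM. LTβR-Ig libraries held 6699, 7663, 8304 and 6165 CPM. All LTβR-Ig libraries were below all controls, and the LTβR-Ig group spread more widely. The level was 1.28-fold lower, from 9220 ± 556 to 7208 ± 958 CPM (SD, n = 4 each). On the log2 scale B2m stood at -0.36 (SE 0.11, 95% interval -0.60 to -0.11, edgeR adjusted p = 0.497). No 76-base window of B2m occurs in another gene.

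Tap1 and Tap2 encode the partner chains of the TAP peptide transporter. Tap1 (chromosome 17, 34187553 to 34197225) was at 40.4, 40.6, 43.0 and 28.2 CPM with control antibody and at 30.9, 31.3, 41.2 and 20.7 CPM with LTβR-Ig. Tap2 (chromosome 17, 34203527 to 34216321) was at 55.7, 82.2, 79.9 and 48.2 CPM with control antibody and at 53.4, 87.5, 77.1 and 82.6 CPM with LTβR-Ig. Both genes overlapped between the groups, replicate 4 was the lowest of its group for Tap1 in either group, and Tap2 was the 1 member with a higher mean after LTβR-Ig. The log2 fold change was -0.29 for Tap1 (SE 0.23, 95% interval -0.82 to 0.23, edgeR adjusted p = 1.00). It was 0.18 for Tap2 (SE 0.22, 95% interval -0.33 to 0.68, edgeR adjusted p = 1.00). The interval of Tap1 includes the value of H2-K1, and both intervals span 0. Omitting single libraries moved Tap1 between -0.46 (LTβR-Ig replicate 3 omitted) and -0.14 (LTβR-Ig replicate 4 omitted), and Tap2 between 0.050 (control replicate 4 omitted) and 0.32 (LTβR-Ig replicate 1 omitted).

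Tapbp encodes tapasin, which bridges the transporter and the empty heavy chain, and lies at 33915899 to 33929292 on chromosome 17. It was at 552, 536, 560 and 494 CPM in control libraries. It was at 345, 488, 474 and 417 CPM in LTβR-Ig libraries. The groups did not overlap, with LTβR-Ig replicate 1 the lowest. The level was 1.24-fold lower, from 535 ± 29.3 to 431 ± 65.1 CPM (SD, n = 4 each). The log2 value of -0.31 (SE 0.12) had a 95% interval of -0.59 to -0.040 and an edgeR adjusted p of 0.684. Its unadjusted edgeR p passed 0.05 when any of control replicates 1 to 3, LTβR-Ig replicate 1 or LTβR-Ig replicate 4 was omitted. Of its 76-base transcript windows 17.4% lie in the antisense gene Gm19412, which itself held 437 counts over all libraries, and whether the counting used strand is not given in the labels.

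Psmb8 and Psmb9 encode the inducible catalytic subunits that take the place of standard ones in immunoproteasomes. Psmb8 (chromosome 17, 34197721 to 34201454) was at 191, 191, 221 and 189 CPM with control antibody and at 176, 182, 205 and 176 CPM with LTβR-Ig. Psmb9 (chromosome 17, 34181987 to 34187764) was at 73.0, 58.6, 82.7 and 51.8 CPM with control antibody and at 64.7, 36.9, 62.4 and 42.1 CPM with LTβR-Ig. For both genes the groups overlapped, and control replicate 3 was the highest library. The log2 fold change of Psmb8 was -0.10 (SE 0.099, 95% interval -0.32 to 0.12, edgeR adjusted p = 1.00). That interval does not reach the value of H2-K1 but overlaps its 95% interval (-0.68 to -0.25), and the difference between the genes was not tested. Psmb9 had -0.37 (SE 0.23, 95% interval -0.89 to 0.15, edgeR adjusted p = 0.947). Omitting single libraries moved Psmb8 between -0.15 (LTβR-Ig replicate 3 omitted) and -0.037 (control replicate 3 omitted), and Psmb9 between -0.49 (LTβR-Ig replicate 1 omitted) and -0.24 (LTβR-Ig replicate 2 omitted). Psmb9 and Tap1 overlap by 212 bases on opposite strands, so a small part of their reads may be shared.

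Nlrc5 encodes the class I transactivator and lies on chromosome 8 at 94434356 to 94527272. Its control libraries were at 27.2, 22.99, 38.0 and 22.6 CPM, and its LTβR-Ig libraries were at 24.4, 16.8, 34.0 and 28.4 CPM. The ranges of the groups largely coincided. The mean difference on the log2 scale was -0.097 (SE 0.26, 95% interval -0.69 to 0.50, edgeR adjusted p = 1.00). Its sign turned when control replicate 3 was omitted (0.099) and when LTβR-Ig replicate 2 was omitted (0.063).

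Per kilobase of exon, the members ranked in a steep order that was nearly the same in both groups. Exon length counted every base in any GENCODE M21 exon of the gene, so per-kb levels and ratios between genes depend on that annotation. In control libraries B2m led with 10720 ± 647 CPM per kb, followed by H2-D1 with 2447 ± 206, H2-K1 with 710.3 ± 73.7, Tapbp with 148 ± 8.09 and Psmb8 with 58.5 ± 4.62 CPM per kb (SD, n = 4 each). None of these neighbours overlapped in any library. H2-Q7, Psmb9 and Tap2 came next at 18.7, 18.2 and 17.6 CPM per kb, and their ranges overlapped. Tap1 stood at 6.95 and Nlrc5 at 3.26 CPM per kb. In LTβR-Ig libraries the first 5 places were the same, while Tap2 (19.9), Psmb9 (14.1) and H2-Q7 (12.4) stood in the reverse order and Tap1 overlapped Nlrc5.

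Ratios of 1 gene to another within a library need no scaling between libraries. H2-K1 per kb was 0.283, 0.289, 0.297 and 0.291 of H2-D1 per kb in control libraries. With LTβR-Ig the ratio was 0.244, 0.247, 0.240 and 0.242, so the groups did not overlap and each was tight. The ratio went from 0.290 ± 0.00572 to 0.243 ± 0.00327 (SD, n = 4 each), a log2 difference of -0.25 that stayed between -0.27 and -0.24 without any single library. Its exact two-sided permutation p was 0.0286, the smallest that 4 against 4 libraries can give, and 0.143 after Benjamini-Hochberg adjustment over 5 such ratios. These 5 ratios were chosen after their values were seen, so their p-values serve as description only. The ratio of B2m to H2-K1 went from 15.1 to 16.3 (exact permutation p = 0.343) and that of B2m to H2-D1 from 4.39 to 3.95 (exact permutation p = 0.114). Tap1 to Tap2 went from 0.405 to 0.297 (exact permutation p = 0.171) and H2-Q7 to H2-K1 from 0.0265 to 0.0240 (exact permutation p = 0.200). H2-K1 was thus lower relative to H2-D1 in all 4 LTβR-Ig libraries, while the other ratios overlapped between the groups.

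Immunoproteasome subunits were also set against the standard subunits whose place they take. Psmb8 to Psmb5 went from 0.471 ± 0.0385 to 0.388 ± 0.0688 per kb (SD, n = 4 each). Its exact two-sided permutation p was 0.0857, or 0.171 when adjusted over the 3 ratios. Psmb9 to Psmb6 went from 0.113 to 0.0861 (exact permutation p = 0.257), and Psmb10 to Psmb7 from 2.14 to 1.66 (exact permutation p = 0.114). All 3 ratios had lower means with LTβR-Ig, and none passed the test. The smallest p that 4 against 4 libraries can give, 0.0286, would not pass 0.05 after adjustment if only 1 of the 3 ratios reached it. For Psmb8 to Psmb5, the edgeR log2 fold changes were -0.10 for Psmb8 and 0.20 for Psmb5, so the standard subunit had a higher mean. They were -0.37 and 0.053 for Psmb9 and Psmb6, and -0.39 and -0.049 for Psmb10 and Psmb7.

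**Figure D2:**
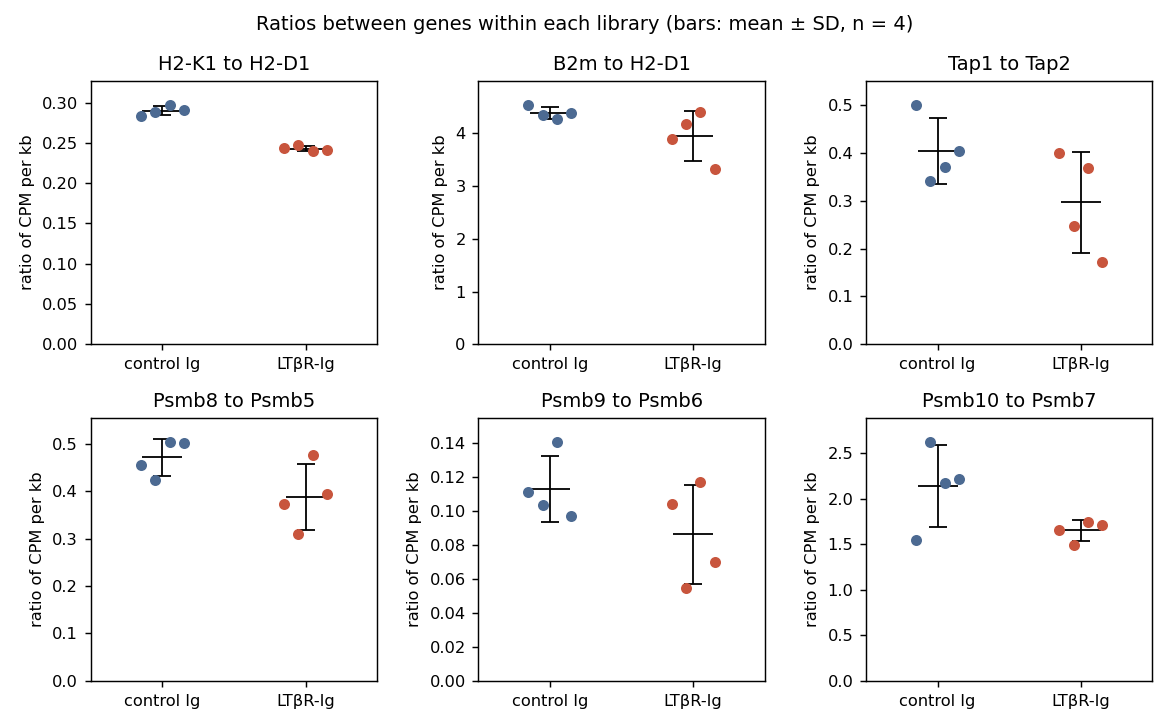
Ratio of CPM per kb of 1 gene to another within each library (y axes from 0); points are libraries, and bars give the mean ± SD of the 4 libraries of each group. H2-K1 to H2-D1 lies at 0.283 to 0.297 in control and at 0.240 to 0.247 in LTβR-Ig libraries, and the other ratios overlap.

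Promoter sequences were examined because the members that were lower include genes on different chromosomes. RefSeq windows of 300 bases on GRCm38.p6, from 250 before to 50 after the start site, were found for 8 members and not used for Tap2 and Nlrc5. The letters searched on both strands were GGGNNNNNCC for κB elements, TTTCNNTT for the core of an interferon-stimulated response element (ISRE), TGACG for the X2 box bound by CREB/ATF proteins, and ATTGG for the Y box bound by NF-Y. The stretches below hold these matches in capitals, read 5′ to 3′ on the strand of the gene. In B2m the ISRE core is on the reverse strand and reads AACTGAAA, and in H2-K1 and B2m the κB capitals are 2 overlapping matches. The H2-K1 stretch lies at chr17:34000353-34000464 on the minus strand and the H2-Q7 stretch at chr17:35439016-35439125, both outside annotated genes. The B2m stretch at chr2:122147544-122147644 lies in an intron of Patl2, a gene on the opposite strand. For H2-D1 only the 30 bases from the X2 to the Y match are given, at chr17:35262993-35263022, which fall in an exon of a longer H2-D1 transcript in GENCODE.
H2-K1: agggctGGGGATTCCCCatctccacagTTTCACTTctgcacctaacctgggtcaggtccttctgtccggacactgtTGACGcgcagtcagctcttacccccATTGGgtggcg
H2-Q7: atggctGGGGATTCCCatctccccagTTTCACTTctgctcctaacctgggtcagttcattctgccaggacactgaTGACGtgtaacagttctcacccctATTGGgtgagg
B2m: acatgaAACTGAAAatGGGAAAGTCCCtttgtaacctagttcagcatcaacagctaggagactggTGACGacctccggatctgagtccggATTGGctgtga
H2-D1: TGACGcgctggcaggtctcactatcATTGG

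All 3 heavy chain genes and B2m hold TGACG followed by ATTGG, with 20 bases between them, or 19 in H2-Q7. The pair with a gap of 15 to 25 bases occurred in 0.436% of 32817 RefSeq windows, while the single motifs are common: κB in 50.8%, the ISRE core in 23.9%, TGACG in 20.8% and ATTGG in 37.4% of windows. Of 100 tested genes with the pair, 10 were lower and 5 higher at an unadjusted edgeR p under 0.05, with a median log2 fold change of -0.072, beside 2.93 and 3.39% of all genes. All motifs together occurred in the windows of 16 genes, 14 of them tested, and 6 of the 14 were lower and 1 higher at that p. These 6 were H2-K1, H2-D1, H2-Q7, B2m, the class I like gene H2-M3 and Avpr1a, a vasopressin receptor gene, and the higher gene was Dnah6, a dynein gene. The 4 members among the 6 had prompted the search and are also among the 10, so neither count supports anything. Other genes of the pathway lists that were lower at that p lacked the pair in their windows: H2-Q6, H2-T23, Mr1, Erap1 and Irf1 held some of the single motifs, and Psmb10 held none. The heavy chain genes are copies of one another and share their promoters by descent, so they are not independent cases. Tap1 and Psmb9 lie head to head, and their windows share 275 bases that hold κB matches, 1 TGACG and 1 ATTGG match, without the pair at that gap or the ISRE core. Tapbp held 2 ATTGG matches alone, and Psmb8 held none of the motifs. Matches describe letters in these windows and were not tested as binding sites.

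Other heavy chains of the classical and Qa region were taken from a list of 10 genes, 7 of them tested. H2-Q6 went from 113 ± 21.7 to 75.6 ± 13.1 CPM (SD, n = 4 each), or -0.58 on the log2 scale (SE 0.18, edgeR adjusted p = 0.510). It overlapped between the groups and shares 20.6% of its 76-base windows with other genes, most often H2-Q7 (9.65%). With the members H2-K1, H2-D1 and H2-Q7 this gave 4 of 7 lower at an unadjusted p under 0.05, none higher, and a median of -0.46. H2-Q6 was the only gene this count added to the members. For this list and those below, 2.93% of all genes tested were lower and 3.39% higher at that p. The exception nearest to 0 was H2-Q10 at 0.016 (SE 0.13), with 190 ± 24.5 and 192 ± 23.1 CPM (SD, n = 4 each).

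Class I like chains present other ligands or serve other tasks, and 11 of 17 listed genes were tested. H2-M3, which presents N-formylated peptides, was at 102, 83.9, 84.7 and 67.9 CPM with control antibody and at 60.7, 50.8, 55.3 and 51.1 CPM with LTβR-Ig. The groups did not overlap, and the log2 fold change was -0.64 (SE 0.14, edgeR adjusted p = 0.244, DESeq2 adjusted p = 0.00433). Mr1, which presents vitamin B metabolites, had -0.56 (SE 0.20, edgeR adjusted p = 0.651). H2-T23, the Qa-1 gene, had -0.44 (SE 0.18, edgeR adjusted p = 0.732), from 448 ± 93.5 to 330 ± 52.7 CPM (SD, n = 4 each). These 3 of 11 were lower at an unadjusted p under 0.05, none was higher, and the median of the list was -0.12.

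Among 10 genes of peptide transport and loading, Tapbp and the peptide trimming enzyme gene Erap1 were lower at an unadjusted p under 0.05 and none was higher. Erap1 went from a mean of 160 to 129 CPM, or -0.31 on the log2 scale (SE 0.12, edgeR adjusted p = 0.671). The list as a whole had a median of 0.071. Of 6 immunoproteasome genes 1 was lower at that p: Psmb10, the third inducible catalytic subunit, at 117, 144, 143 and 124 CPM with control antibody and 90.4, 101, 111 and 99.7 CPM with LTβR-Ig. Its groups did not overlap, and its log2 fold change was -0.39 (SE 0.11, edgeR adjusted p = 0.460). None of 14 standard proteasome subunit genes passed in either direction, the median was -0.026, and the 2 with the smallest p were Psmb5 (0.20) and Psma1 (-0.16).

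**Figure D3:**
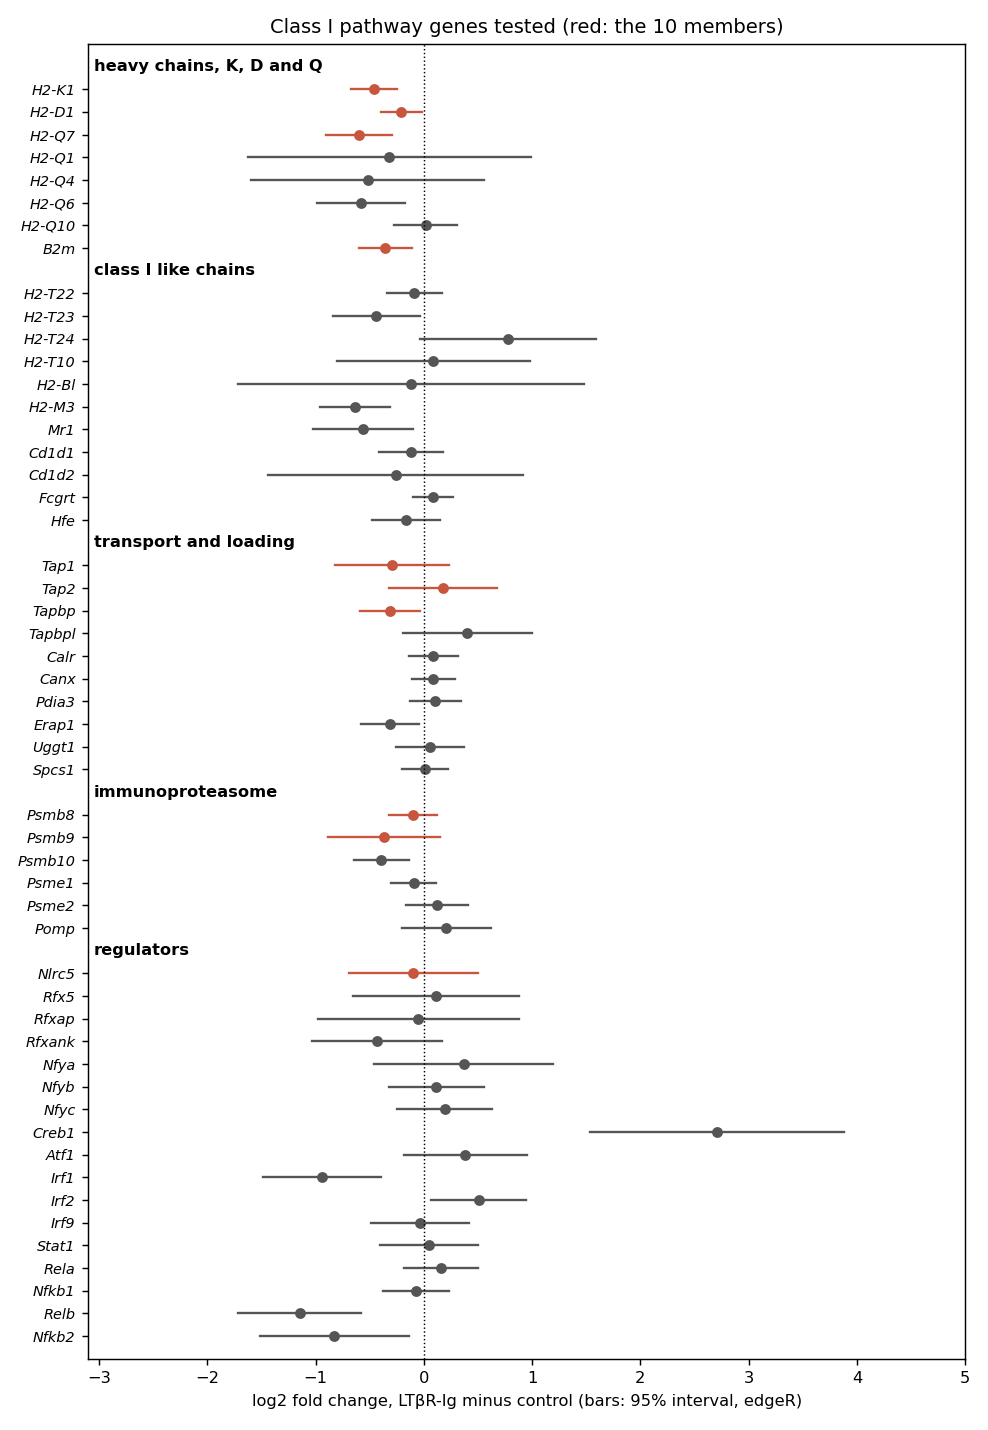
Log2 fold change, LTβR-Ig minus control, of each tested gene of the class I pathway lists (x axis; points with edgeR 95% intervals), grouped by role, with the 10 members in red. H2-K1, H2-Q7, H2-Q6 and H2-M3 lie between -0.46 and -0.64 with intervals below 0, Nlrc5 spans 0, and Creb1 lies apart at 2.71.

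Regulators of class I transcription went both ways, with 3 of 17 below the controls and 2 above them at an unadjusted p under 0.05. Irf1, the interferon regulatory factor that activates class I promoters, was at 209, 177, 202 and 201 CPM with control antibody and at 111, 130, 116 and 54.1 CPM with LTβR-Ig. All LTβR-Ig libraries were far below the controls, and the log2 fold change was -0.94 (SE 0.24, edgeR adjusted p = 0.365, DESeq2 adjusted p = 0.0269). Its counterpart Irf2, which can act as a repressor at the same element, was at 38.0 ± 2.90 and 54.0 ± 14.4 CPM (SD, n = 4 each), with 0.51 (SE 0.19, edgeR adjusted p = 0.681). Relb and Nfkb2 encode NF-κB proteins of the non-canonical pathway that the lymphotoxin β receptor uses. Their log2 fold changes were -1.15 (edgeR adjusted p = 0.226) and -0.83 (edgeR adjusted p = 0.657), and neither gene's groups overlapped.

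Creb1, which encodes a protein that binds the X2 box, differed most among the regulators. It was at 9.09, 7.82, 7.46 and 5.39 CPM with control antibody and at 41.9, 69.7, 71.5 and 11.2 CPM with LTβR-Ig. The groups did not overlap, but LTβR-Ig replicate 4 was near the controls. The log2 fold change of 2.71 (SE 0.52) had an edgeR adjusted p of 0.165 and a DESeq2 adjusted p of 1.84e-05, and without LTβR-Ig replicate 4 it was 3.04 with an edgeR adjusted p of 0.0282. The direction was thus opposite to that of the class I genes. In the 3 LTβR-Ig libraries with high Creb1, H2-K1 was at 1428 to 1548 CPM, and in the library with low Creb1 it was at 1533 CPM. Any link between Creb1 and the level of class I genes was not tested.

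The class II pathway and interferon genes served for comparison. None of 10 tested class II pathway genes was lower or higher at an unadjusted p under 0.05. The 2 with the smallest p were H2-DMa (-0.27, 95% interval -0.96 to 0.41) and H2-DMb2 (-0.54, 95% interval -2.19 to 1.12). Both intervals are wide and include the value of H2-K1 (-0.46). Among 9 interferon receptor and kinase genes none passed either, with Jak2 at -0.33 and Ifngr2 at 0.26. Of 20 interferon response genes Cxcl10, a chemokine gene, was lower (-0.75, edgeR adjusted p = 0.752) and Isg15, a ubiquitin-like modifier gene, was higher (0.78, edgeR adjusted p = 0.698) at an unadjusted p under 0.05, and the median was 0.16. Isg15 overlapped between the groups and rested on LTβR-Ig replicate 3, at 145 CPM against 52.7 to 72.2 CPM in the other LTβR-Ig libraries. Without that library Isg15 was at 0.37 with an unadjusted edgeR p of 0.0506. Whether these lists differ from the members was not tested.

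Of the genes outside the members named for an unadjusted p under 0.05, H2-Q6, H2-M3, Psmb10, Irf1, Relb and Creb1 kept a p under 0.05 without any single library. H2-T23, Mr1, Erap1, Irf2, Nfkb2, Cxcl10 and Isg15 each lost it without at least 1 library. Irf2 was at 0.32 without LTβR-Ig replicate 4.

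Except for B2m and Nlrc5 the members lie within the MHC on chromosome 17, and the genes around them were counted to see whether the whole region was lower. In the 3.5 Mb from the start of Tapbp, 110 tested genes belonged neither to the members nor to the class I and class II lists. At an unadjusted p under 0.05 the lower genes among these numbered 5 and the higher genes 7, beside 2.93 and 3.39% of all genes tested. The median log2 fold change of the 110 was 0.043. The 110 still include class I related genes left off the lists, such as H2-K2, H2-Q5 and H2-T-ps.

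**Figure D4:**
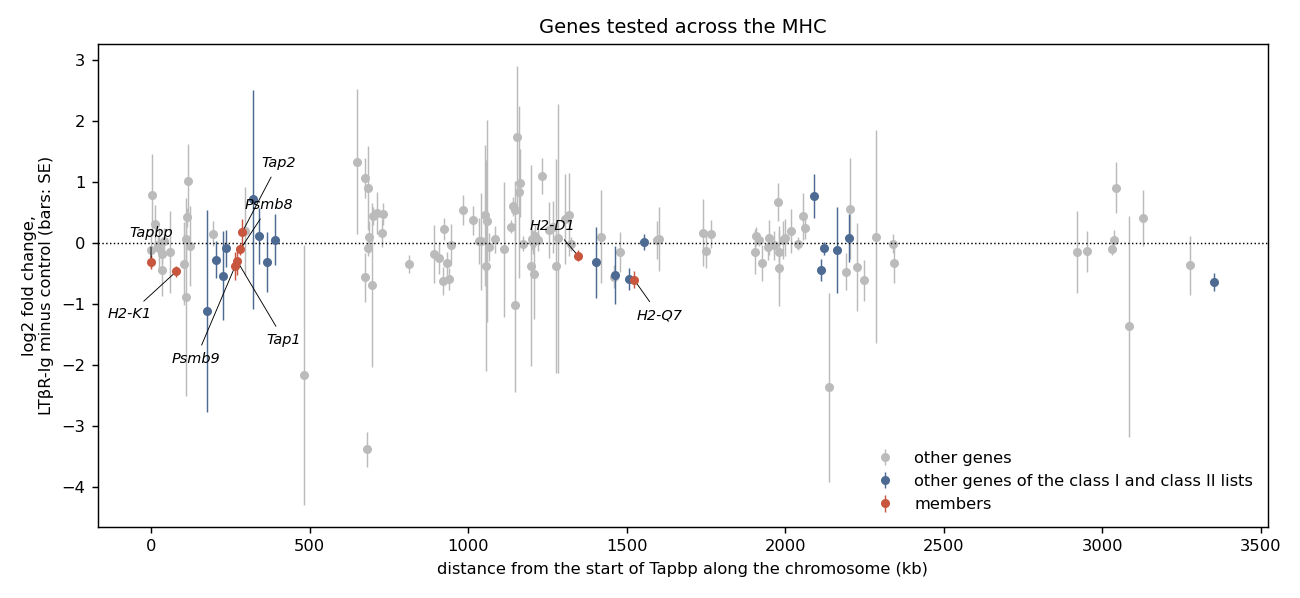
Log2 fold change, LTβR-Ig minus control (y axis; bars give SE), of tested genes by distance in kb from the start of Tapbp (x axis), with members in red, other genes of the class I and class II lists in blue and all others in grey. Members and listed genes lie among neighbours that are spread on both sides of 0, with a median of 0.043 for the 110 grey genes.

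The libraries of a group also differed among themselves. After each gene's group mean was subtracted from its log2 CPM, H2-K1 and H2-D1 varied together with a Pearson r of 0.986 over the 8 libraries. H2-Q7 went with Tap2 (r = 0.934) and Tapbp (r = 0.857), while Psmb9 was unrelated to H2-K1 (r = -0.0477) and went with Nlrc5 (r = 0.741). The mean of the 3 heavy chain genes was highest in control replicate 3 (0.17 above its group on the log2 scale) and lowest in LTβR-Ig replicate 1 (-0.14) and control replicate 1 (-0.135). Of 7774 other genes above a log2 CPM of 4 on average, the 5 whose deviations were most like this mean were Nfe2 (r = 0.987), C1galt1c1 (0.981), Chmp6 (0.945), Casp9 (0.945) and Zfp9 (0.941). These values describe 8 points that share library preparation and scaling, and none was tested.

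Levels of other cell types' markers were set beside the heavy chain result, since blood and vessel cells also express class I. Myeloid markers took 0.259 to 0.629% of counts in control and 0.281 to 0.636% in LTβR-Ig libraries, and none of 8 differed at an unadjusted p under 0.05. B and plasma cell markers took 0.0635 to 0.179% and 0.0644 to 0.171%, with 1 of 8 higher. T and NK cell markers took 0.00321 to 0.0101% and 0.00295 to 0.00996%, and 1 of the 6, Klrb1c, was at 0 in all libraries. Endothelial markers took 0.00454 to 0.0119% and 0.00296 to 0.0243%, and none of 8 differed at that p. Megakaryocyte markers took 0.0532 to 0.229% and 0.0795 to 0.320%, also with none of 6. Erythroid markers took 1.57 to 4.72% and 1.56 to 3.55%, with none of 7. Osteoblast markers took 1.12 to 2.31% and 1.16 to 1.84%, with 2 of 6 higher. All 8 endothelial and all 6 megakaryocyte markers had log2 fold changes above 0, each list with a median of 0.57 and with mean shares 1.53 and 1.51 times those of the controls. All 7 erythroid markers were below 0, with a median of -0.13. So were 7 of 8 myeloid (median -0.18), 5 of 8 B and plasma cell (-0.21) and all 3 tested T and NK cell markers (-0.22). Of pan-leukocyte markers 3 of 6 were below 0 (median 0.027), and of osteoblast markers 1 of 6 (median 0.68). The ranges of the groups overlapped in each of these lists, and their part in the heavy chain levels was not tested.

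With both control replicate 3 and LTβR-Ig replicate 2 left out, H2-K1 (-0.41), H2-Q7 (-0.57) and Tapbp (-0.35) were still lower at an unadjusted edgeR p under 0.05. B2m (-0.35) and H2-D1 (-0.16) were then above it, at an unadjusted edgeR p of 0.0515 and 0.187.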

How the data were processed

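The authors deposited raw counts per gene, whole numbers with no normalization, for 52636 genes in 8 libraries. HISAT2, HTSeq and the build mm10 are named per the submitters' processing notes. For tool versions, annotation, strand setting and treatment of shared reads, nothing is given in the sources used here. Symbols and positions came from GENCODE M21, where 52403 gene IDs matched without the version suffix.

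Counts were tested with edgeR 4.0.16 in R 4.3.3 (TMM scaling, filterByExpr with a minimum count of 10 and a minimum total of 15, robust quasi-likelihood F test, no covariate, Benjamini-Hochberg over 16045 genes, threshold 0.05). CPM values are TMM-scaled. The script was checked on simulated data before use. Ratios were tested by exact permutation. Standard errors are the log2 fold change over the square root of F.

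The members and lists were chosen with earlier results of these data known. All members were named, and of each other list the genes at an unadjusted p under 0.05, or else the 2 with the smallest p, were named. H2-Q10, the genes with shared promoter matches and the 5 ratios outside the proteasome were chosen after their values were seen. Alternatives were DESeq2 1.42.0 size factors and Wald test, upper-quartile factors, limma-voom (limma 3.58.1), other filters, a replicate block, and omission of libraries. One marker list is not reported here.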

Additional observations from a re-analysis of the deposited data

Results flagged for a closer look

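Within each group of 4 libraries, single values far from the rest were sought by Dixon's ratio of gap to range. About 1 group in 20 meets the 95% critical value by chance, and 3 of the 58 gene and group pairs of the 29 named genes met it. In LTβR-Ig replicate 1, H2-K1 stood at 1428 CPM, below the 1533 to 1548 CPM of the rest of its group. Psmb8 stood at 221 CPM in control replicate 3, above the other controls at 189 to 191 CPM. In control replicate 1, Nfkb2 stood at 18.1 CPM, above the 13.7 to 14.3 CPM of the other controls.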

How the results depend on the processing

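The count of members lower at an unadjusted p under 0.05 was 5 in the edgeR test and under DESeq2 size factors, upper-quartile factors, the DESeq2 Wald test, limma-voom and no filter. It was 4 under a stricter filter (at least 10 counts in 4 libraries and a mean of at least 5 CPM), 3 to 4 without single libraries, and 3 with the pair of libraries at the extremes of the first principal component left out (control 3, LTβR-Ig 2), an omission chosen after seeing the data. H2-K1 and H2-Q7 were among them in every one of these settings. The share of all genes tested that were lower at that p ran from 2.41% without that pair to 3.58% with limma-voom. It was 2.93% in the edgeR test, 3.39% under the stricter filter and 2.91% with the replicate block described below. The count of all genes past the adjusted threshold moved more: 338 with DESeq2, 14 with limma-voom, 22 with the stricter filter, 2 to 9 without single libraries and 1 without that pair. The design text mentions 4 pairs without stating what is shared, and no label ties the replicate numbers to them. With the replicate number as a block the member count was 6, Psmb9 being added, and 1 gene passed the threshold in place of 6. The unadjusted edgeR p of Psmb9 was then 0.0283 in place of 0.141. Same-numbered libraries deviated together with r = 0.176, 0.0592, 0.112 and 0.0256 over 7784 genes. The block was kept as an alternative because the labels do not say what a pair shares. These r values cannot settle whether the numbers mark the pairs, since libraries with different numbers were not compared. The log2 fold change of Nlrc5 ran from -0.25 to 0.099 without single libraries (0.063 without LTβR-Ig replicate 2) and was 0.255 without that pair. H2-DMa ran from -0.53 to -0.11 and was 0.0287 without that pair. For these reversals the cause was not tested.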
